A study of Mus musculus with 9 samples.

Results

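The genes described here mark the 2 sources of vascular RNA in a piece of brain: the walls of blood vessels and the blood left inside them. They are the 6 vessel genes Cldn5, Pecam1, Flt1, Kdr, Tek and Slco1a4 and the 2 red blood cell genes Hbb-b1 and Alas2, taken by symbol from a table of 27497 Ensembl gene identifiers. The 8 symbols correspond to 9 identifiers, because the table gives the name Hbb-b1 to 2 of them: ENSMUSG00000052305, named Hbb-bs in GENCODE M21, and ENSMUSG00000073940, named Hbb-bt there. All 9 identifiers had a mean of at least 1 RPKM (reads per kilobase of transcript and per megaread mapped) and entered the tests, which covered 12780 identifiers.

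Polyadenylated RNA was sequenced from the olfactory bulb, the first relay of smell in the brain, of 9 adult mice of the strain C57/BL6, whose age is given as 6 to 8 weeks or more. The 3 mice of the 30 min group were killed at the end of 30 min of breathing a mixture of odorants. The 3 mice of the 120 min group had the same 30 min of odorants and then 90 min of clean air. The 3 clean air mice were kept in air passed through activated carbon. No genetic change is given for any group, and the sources used here do not say whether blood was washed out of the vessels before dissection. Library depth, worked out from the steps between low RPKM values, was 7.16 to 29.9 M counted reads (M, megareads), so that 3 counts on a transcript of 1 kb correspond to 0.1004 to 0.419 RPKM. Floors of this kind cover counting error only. The intervals of log2 differences given below rest instead on the spread between mice in the fitted model.

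Endothelial cells of brain vessels are sealed to one another by tight junctions and carry transporters that select what enters the tissue, which together make the blood-brain barrier. They read vascular endothelial growth factor (VEGF) and the angiopoietins through receptor tyrosine kinases on their surface. Red blood cells of mammals have no nucleus, and the youngest of them, the reticulocytes, still hold the messenger RNAs for globin and for the enzyme that starts haem synthesis. Blood that stays in a dissected tissue therefore brings these messages with it.

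The 2 globin identifiers are shown by sequence first, because they are hard to tell apart with short reads. The coding sequences of Hbb-bs and Hbb-bt, both on chromosome 7, differ at 1 of 444 bases (99.8% identity) and are identical over the first 416 bases. Bases 298 to 417 of both coding sequences, in GENCODE M21, are given below with the differing base in capitals.
Hbb-bs coding bases 298 to 417: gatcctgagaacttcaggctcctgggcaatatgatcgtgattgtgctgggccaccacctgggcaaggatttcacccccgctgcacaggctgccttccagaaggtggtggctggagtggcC
Hbb-bt coding bases 298 to 417: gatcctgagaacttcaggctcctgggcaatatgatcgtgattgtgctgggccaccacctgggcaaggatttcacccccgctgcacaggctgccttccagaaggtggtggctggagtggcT
Of all 35-base stretches in the longest coding transcript of each gene, 66.7% for Hbb-bs and 59.2% for Hbb-bt also occur in the other. The share was 15.2% for Alas2, mostly with the overlapping gene Apex2 (0.58 to 8.57 RPKM over the 9 libraries), and 6.47% for Slco1a4, mostly with Slco1a5 (0 to 0.11 RPKM). It was 0 for Cldn5, Pecam1, Flt1, Kdr and Tek. The sources used here do not say how reads with several matches were counted, so the split between the 2 Hbb-b1 identifiers is uncertain, and their sum is given beside them.

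The promoters of the red blood cell genes share a motif that the vessel promoters searched do not hold. RefSeq promoter sequences (GRCm38.p6) were found for 8 of the 9 identifiers, Pecam1 being the one without an entry, and the 250 bases before each gene's start were searched on both strands. Capitals mark GATAA, the core letters read by GATA factors, and CACCC, the core letters read by erythroid Kruppel-like factor, in the 3 red blood cell promoters; on the opposite strand they read TTATC and GGGTG. In the Flt1 promoter capitals mark AGGAAG, letters that ETS factors read.
Hbb-bs promoter, chr7:103827929-103828178, minus strand: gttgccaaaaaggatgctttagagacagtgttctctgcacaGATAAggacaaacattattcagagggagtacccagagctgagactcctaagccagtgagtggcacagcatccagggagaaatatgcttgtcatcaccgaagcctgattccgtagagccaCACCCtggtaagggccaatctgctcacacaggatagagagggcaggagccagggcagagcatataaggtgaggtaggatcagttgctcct
Hbb-bt promoter, chr7:103813924-103814173, minus strand: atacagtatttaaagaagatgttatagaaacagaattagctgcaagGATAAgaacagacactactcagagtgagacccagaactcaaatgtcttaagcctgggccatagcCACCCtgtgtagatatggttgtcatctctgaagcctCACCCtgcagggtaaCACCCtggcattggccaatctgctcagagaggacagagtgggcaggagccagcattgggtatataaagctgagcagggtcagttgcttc
Alas2 promoter, chrX:150547167-150547416, plus strand: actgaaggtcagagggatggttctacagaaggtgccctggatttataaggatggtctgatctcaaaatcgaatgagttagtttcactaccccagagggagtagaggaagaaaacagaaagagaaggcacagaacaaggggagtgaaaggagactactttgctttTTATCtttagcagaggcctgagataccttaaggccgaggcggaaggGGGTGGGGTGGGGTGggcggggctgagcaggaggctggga
Flt1 promoter, chr5:147726012-147726261, minus strand: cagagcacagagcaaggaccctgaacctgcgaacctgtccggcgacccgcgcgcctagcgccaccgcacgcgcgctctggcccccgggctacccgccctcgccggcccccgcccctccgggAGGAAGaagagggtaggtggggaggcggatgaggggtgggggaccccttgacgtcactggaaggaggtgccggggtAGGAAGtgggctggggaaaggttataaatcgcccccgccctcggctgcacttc
GATAA occurred 1 time in each of the 3 red blood cell promoters and in none of the 5 vessel promoters, against 22.6% of the 32851 promoters in the table. CACCC occurred in all 8 and in 52.0% of the table. AGGAAG occurred 2 times in Flt1 and 1 time each in Slco1a4 and Alas2, and in 29.5% of the table. These are matches of letters and do not show that a factor binds.

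Cldn5 (ENSMUSG00000041378), the main claudin of brain endothelial tight junctions, was the most abundant vessel gene in every group and the only one lower in both exposed groups than in clean air without overlap. It had 68.35, 41.38 and 70.32 RPKM in the 30 min mice, and 53.22, 57.0 and 67.03 RPKM in the 120 min mice, against 76.06, 77.01 and 86.88 RPKM in the clean air mice. Every exposed mouse was below every clean air mouse. The log2 difference was -0.45 ± 0.21 (SE, 95% interval -0.91 to 0.01) for 30 min minus clean air and -0.44 ± 0.21 (-0.90 to 0.02) for 120 min minus clean air. With limma and Benjamini-Hochberg adjustment over 12780 genes, neither passed (adjusted p = 0.824 at 30 min and 0.551 at 120 min). Both comparisons use the same 3 clean air mice, so they are not independent. The 30 min difference was -0.20 without mouse 2 of that group. In bulk tissue, fewer endothelial cells and less RNA per cell cannot be told apart, and this holds for every value below.

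Pecam1 (ENSMUSG00000020717), an adhesion molecule at contacts between endothelial cells, had 9.26, 7.5 and 7.86 RPKM in the 30 min mice, and 8.66, 8.1 and 7.51 RPKM in the 120 min mice, against 9.04, 6.22 and 4.11 RPKM in the clean air mice. The groups overlapped, and the clean air mice spread widest (SD 2.47 RPKM, against 0.930 at 30 min and 0.575 at 120 min). The log2 differences from clean air were 0.38 ± 0.24 at 30 min and 0.36 ± 0.24 at 120 min (limma, adjusted p = 0.841 and 0.684). Without clean air mouse 3 they were 0.12 and 0.10, and without clean air mouse 1 they were 0.64 and 0.62.

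The VEGF receptors Flt1 and Kdr were on average higher after odor than in clean air, and neither passed the test. Flt1 (ENSMUSG00000029648), VEGF receptor 1, which binds VEGF tightly and signals weakly, had 17.39, 10.09 and 13.01 RPKM in the 30 min mice, and 12.94, 14.32 and 15.69 RPKM in the 120 min mice, against 11.42, 6.94 and 7.37 RPKM in the clean air mice. All 120 min mice were above all clean air mice, while at 30 min mouse 2 lay below clean air mouse 1. The log2 difference was 0.62 ± 0.24 at 30 min (95% interval 0.10 to 1.15, adjusted p = 0.818) and 0.74 ± 0.24 at 120 min (0.21 to 1.26, unadjusted p = 0.0101, adjusted p = 0.364, limma). The adjusted p of Flt1 at 120 min was the smallest of the 27 member tests, 9 identifiers in 3 contrasts.

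Kdr (ENSMUSG00000062960), VEGF receptor 2 and the main signalling receptor for VEGF, had 4.1, 2.89 and 4.25 RPKM in the 30 min mice, and 3.05, 3.49 and 2.43 RPKM in the 120 min mice, against 2.87, 2.71 and 1.04 RPKM in the clean air mice. All 30 min mice were above all clean air mice by a narrow margin (2.89 against 2.87 RPKM), and clean air mouse 3 was far below the other libraries. The log2 difference was 0.72 ± 0.31 at 30 min (95% interval 0.03 to 1.41) and 0.44 ± 0.31 at 120 min (limma, adjusted p = 0.819 and 0.711). Without clean air mouse 3 these differences were 0.35 and 0.07.

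Tek (ENSMUSG00000006386), also called Tie2, is the receptor for the angiopoietins. It had 3.45, 2.46 and 3.18 RPKM in the 30 min mice, and 2.01, 2.54 and 1.82 RPKM in the 120 min mice, against 2.49, 2.46 and 1.43 RPKM in the clean air mice. The groups overlapped in every comparison. The log2 differences from clean air were 0.44 ± 0.25 at 30 min and 0.02 ± 0.25 at 120 min (limma, adjusted p = 0.832 and 0.990). The 30 min difference was 0.24 without clean air mouse 3 and 0.67 without the 3 mice numbered 2.

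Slco1a4 (ENSMUSG00000030237), an organic anion transporter of the blood-brain barrier, had 3.65, 6.53 and 5.96 RPKM in the 30 min mice, and 3.49, 6.71 and 5.12 RPKM in the 120 min mice, against 4.07, 8.91 and 3.49 RPKM in the clean air mice. The means were close, with log2 differences from clean air of 0.05 ± 0.35 at 30 min (95% interval -0.73 to 0.82) and -0.03 ± 0.35 at 120 min (-0.80 to 0.75). The spread between mice was too wide to bound a change more narrowly than these intervals. The mouse with number 2 in its title was the highest of each group, which is described further on.

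The more abundant globin identifier, Hbb-b1 (Hbb-bs), codes for the adult beta chain of haemoglobin and varied most of all members. It had 147.92, 192.91 and 171.17 RPKM in the 30 min mice, and 45.4, 186.89 and 167.15 RPKM in the 120 min mice, against 141.7, 76.2 and 36.96 RPKM in the clean air mice. All 30 min mice were above all clean air mice, and the 120 min mice split into 1 low and 2 high values. The log2 difference was 1.20 ± 0.54 at 30 min (95% interval -0.00 to 2.40, unadjusted p = 0.0501) and 0.61 ± 0.54 at 120 min (limma, adjusted p = 0.824 and 0.779). Single mice set these values: the 30 min difference was 0.70 without clean air mouse 3 and 1.67 without clean air mouse 1, and the 120 min difference was 1.26 without the low 120 min mouse 1 and 0.11 without clean air mouse 3.

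Hbb-b1 (Hbb-bt), the second beta globin identifier, had 22.5, 13.18 and 17.74 RPKM in the 30 min mice, and 6, 8.93 and 15.73 RPKM in the 120 min mice, against 17.09, 6.36 and 4.85 RPKM in the clean air mice. The groups overlapped, and clean air mouse 1 lay well above the other clean air mice for both globin identifiers. The log2 difference was 1.05 ± 0.44 at 30 min and 0.21 ± 0.44 at 120 min (limma, adjusted p = 0.818 and 0.919). The 2 identifiers summed to 170.42, 206.09 and 188.91 RPKM in the 30 min mice, and 51.4, 195.82 and 182.88 RPKM in the 120 min mice, against 158.79, 82.56 and 41.81 RPKM in the clean air mice. The sum differed by 1.19 ± 0.53 at 30 min and 0.58 ± 0.53 at 120 min on the log2 scale (adjusted p = 0.824 and 0.784).

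Alas2 (ENSMUSG00000025270) codes for the erythroid form of the enzyme that begins haem synthesis and lies on chromosome X. It had 4.74, 3.9 and 2.73 RPKM in the 30 min mice, and 0.91, 1.63 and 1.03 RPKM in the 120 min mice, against 3.12, 1.22 and 1.04 RPKM in the clean air mice. All 120 min mice were below all 30 min mice, and clean air mouse 1 again lay apart from the other clean air mice. The log2 difference was -1.34 ± 0.35 for 120 min minus 30 min (95% interval -2.11 to -0.56), with an unadjusted p of 0.00300 and an adjusted p of 0.999 (limma). It was 0.99 ± 0.35 for 30 min minus clean air and -0.35 ± 0.35 for 120 min minus clean air (adjusted p = 0.790 and 0.804). These levels rest on few reads, about 15 to 229 per library, and 278 of the 2003 35-base stretches of its transcript also belong to Apex2.

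**Figure D1:**
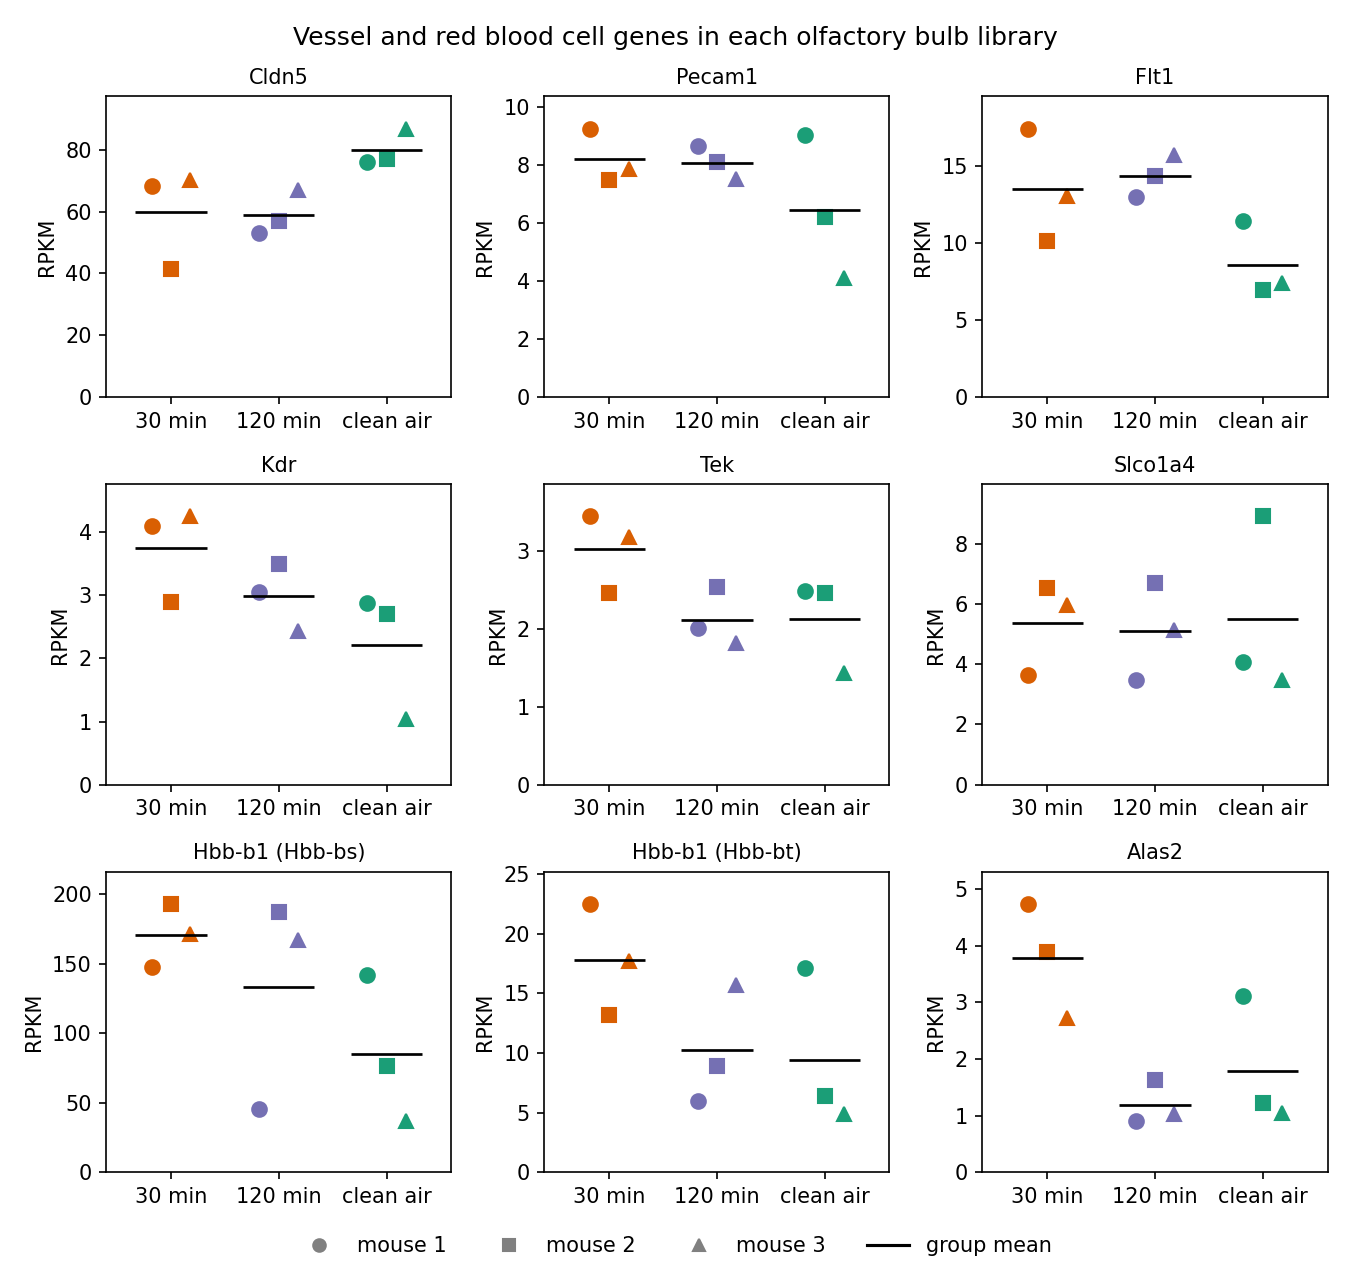
RPKM (vertical axes, from 0) of the 9 identifiers in each mouse, with mouse numbers as symbols and group means as lines, for 30 min, 120 min and clean air. Cldn5 lies between 41.38 and 70.32 RPKM in all exposed mice, below the clean air mice, while Hbb-b1 (Hbb-bs) scatters widely within the 120 min and clean air groups and Alas2 is low in all 120 min mice, at 0.91 to 1.63 RPKM.

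Levels per length placed the members in a stable outline. Hbb-b1 (Hbb-bs) and Cldn5 led in every group, but their ranges overlapped at 120 min and in clean air, so only the 30 min group separated them. Cldn5 was well above the next member in all 3 groups. Flt1 and Hbb-b1 (Hbb-bt) overlapped in all 3 groups, as did Kdr and Tek, and Pecam1 and Slco1a4 overlapped in clean air but not at 30 or 120 min. Alas2 was last at 120 min, below every Tek value, and overlapped Tek in clean air and Kdr at 30 min.

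None of the 27 member tests was called at an adjusted p under 0.05, against 0.141% of all genes for 30 min minus clean air, 0.0861% for 120 min minus clean air and 0.0782% for 120 min minus 30 min. At an unadjusted limma p under 0.05 there were 6 of 27. For 30 min minus clean air these were Flt1, Kdr, Hbb-b1 (Hbb-bt) and Alas2, where 5.92% of all genes were under 0.05. For 120 min minus clean air it was Flt1 (9.57% of all genes), and for 120 min minus 30 min Alas2 (3.36%). The members were measured in the same mice, so these tests are not independent. Groups without overlap were found for 2 members higher and 1 lower at 30 min against clean air, where 7.29% of all genes were higher and 4.08% lower in this way. At 120 min against clean air there were 1 higher and 1 lower (7.86% and 5.27% of all genes), and at 120 min against 30 min 0 higher and 1 lower (4.99% and 5.66%). The median log2 difference of the 6 vessel genes was 0.41 at 30 min and 0.19 at 120 min relative to clean air, against 0.08 and 0.03 over all genes tested. The point estimates of Flt1 and Cldn5 had opposite signs at both times.

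**Figure D2:**
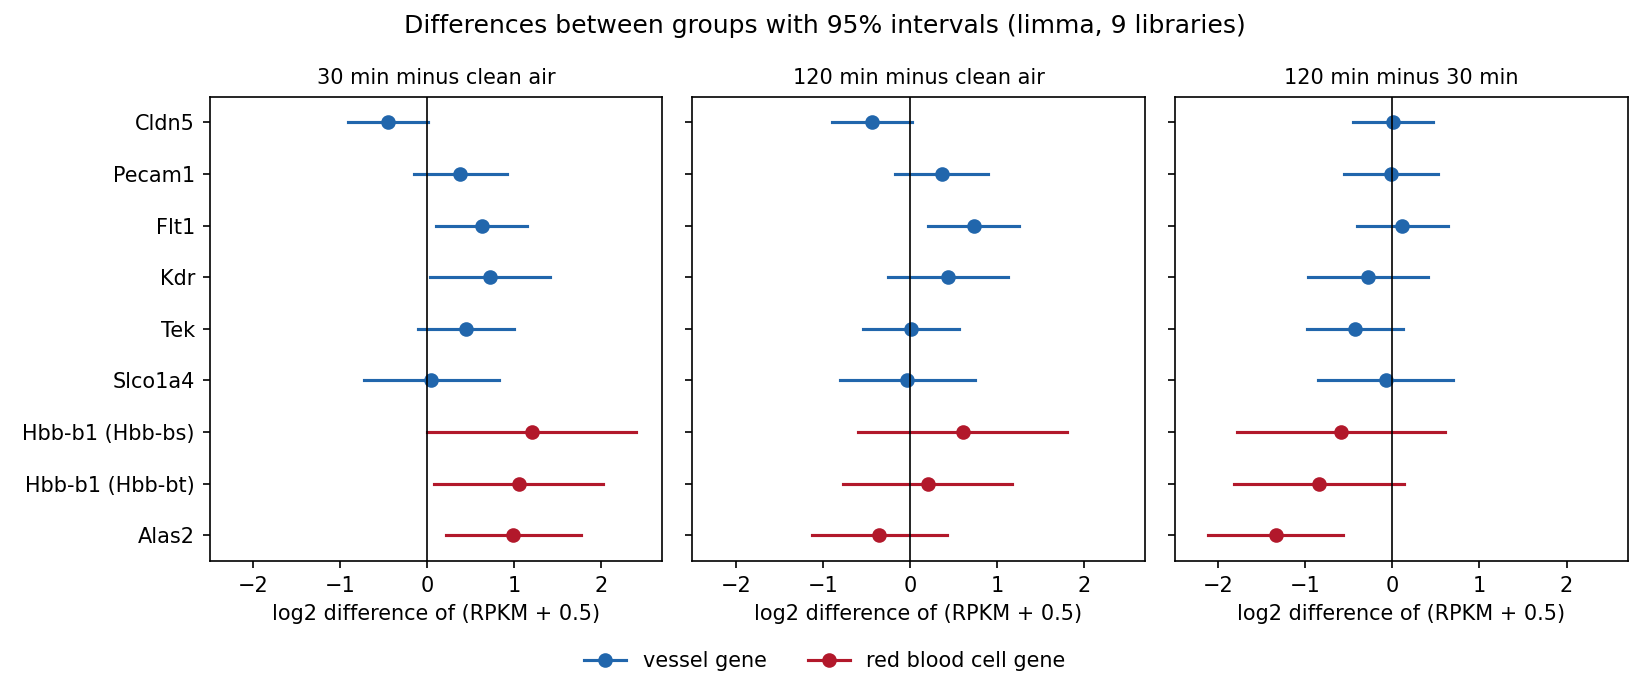
Log2 differences of RPKM + 0.5 (horizontal axis) with 95% intervals from limma for each member, vessel genes in blue and red blood cell genes in red, in 3 contrasts. The intervals of Hbb-b1 (Hbb-bs), with an SE of 0.54, are the widest, and that of Alas2 at 120 min minus 30 min, from -2.11 to -0.56, lies furthest from 0.

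Over all 9 libraries, group differences included, the red blood cell genes had larger spreads than the vessel genes. The SD of log2 values was 0.91 for Hbb-b1 (Hbb-bs), 0.76 for Hbb-b1 (Hbb-bt) and 0.73 for Alas2, at the percentiles 97.8, 96.5 and 96.1 of all genes tested. The vessel genes had SDs of 0.32 to 0.48, at percentiles 58.7 to 86.3, with an all-gene median of 0.29. The highest library was 5.22 times the lowest for Hbb-b1 (Hbb-bs), 4.64 times for Hbb-b1 (Hbb-bt) and 5.21 times for Alas2. It was 4.09 times for Kdr, where clean air mouse 3 alone gave the low end, and 2.10 to 2.55 times for the other vessel genes. Within groups Alas2 varied less (SD 0.47, percentile 85.8) than the vessel gene Slco1a4 (SD 0.51, percentile 88.9), while the globin identifiers stayed at percentiles 97.3 and 95.2.

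The ratio of globin to Cldn5 RNA changed from mouse to mouse, also inside a group. The sum of the Hbb-b1 identifiers was 2.49, 4.98 and 2.69 times the Cldn5 RPKM in the 30 min mice, and 0.966, 3.44 and 2.73 times in the 120 min mice, against 2.09, 1.07 and 0.481 times in the clean air mice. The clean air mouse with the highest Cldn5 (86.88 RPKM) had the lowest globin of all 9 mice. Cldn5 does not stand for the other vessel genes there, since Pecam1, Kdr and Tek were at their lowest of the 9 in the same mouse. Alas2 was 3.20%, 2.02% and 1.59% of Hbb-b1 (Hbb-bs) in the 30 min mice, and 2.00%, 0.872% and 0.616% in the 120 min mice, against 2.20%, 1.60% and 2.81% in the clean air mice. The Alas2 share thus differed between mice and was lowest in 120 min mice 2 and 3. In these mice it rested on about 80 and 15 Alas2 reads. The share is of Hbb-b1 (Hbb-bs) alone, whose split from Hbb-b1 (Hbb-bt) is uncertain, and its differences were not tested against counting error.

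**Figure D3:**
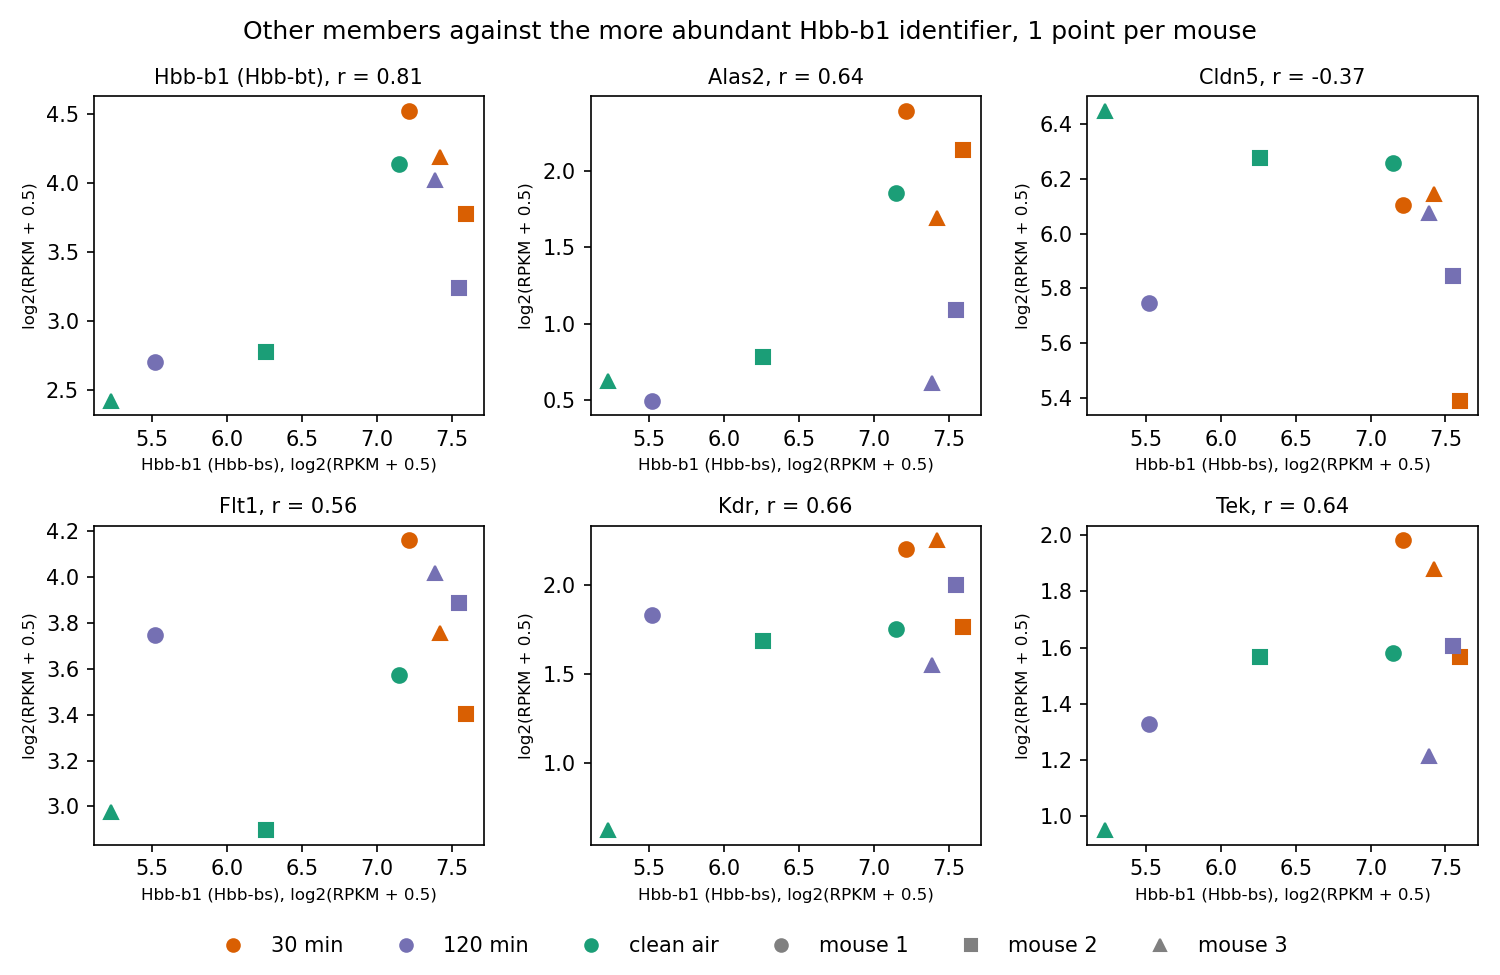
The member named above each panel against Hbb-b1 (Hbb-bs), both on the log2(RPKM + 0.5) scale, 1 point per mouse, with color for group and symbol for mouse number. Clean air mouse 3 lies at the low left for every gene shown except Cldn5, where it is the highest mouse.

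Pairs of members were compared over the 9 mice as Pearson r of log2(RPKM + 0.5), 36 pairs in all, each with an exact permutation test. One pair passed after adjustment over the 36: Kdr and Tek, with r = 0.90 (exact p = 0.000562, adjusted p = 0.0202) and Spearman rho = 0.85 (exact p = 0.00520, adjusted p = 0.187). For these receptors r was 0.83 without the 2 mice farthest from the Kdr median and 0.96 for deviations from the group means. The adjusted call was lost on leaving out 30 min mouse 1, 30 min mouse 3, 120 min mouse 2 or clean air mouse 3.

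The other relations were looser. The 3 red blood cell pairs had r of 0.64 to 0.81, with 0.81 for the 2 globin identifiers (exact p = 0.00931, adjusted p = 0.106), which share most of their sequence, and 0.64 for Hbb-b1 (Hbb-bs) with Alas2 (exact p = 0.0732, adjusted p = 0.165). The 18 pairs of a vessel gene with a red blood cell gene had a median r of 0.55 and ran from -0.37 to 0.77. The 15 pairs of vessel genes had a median of 0.27 and ran from -0.44 to 0.90. The difference between these medians was not tested. The median of the vessel pairs joins unlike pairs: among Pecam1, Flt1, Kdr and Tek r ran from 0.44 to 0.90. Slco1a4 had an r of -0.29 to 0.27 with these genes. Cldn5 had a negative r with all other members, from -0.44 with Pecam1 to -0.10 with Hbb-b1 (Hbb-bt). For deviations from the group means its r lay between -0.27 and 0.53.

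For Pecam1, Flt1, Kdr and Tek the positive relation with globin over the 9 mice was weaker or lost without 2 of them. Without clean air mice 2 and 3, the farthest from the Pecam1 and Flt1 medians, r with Hbb-b1 (Hbb-bs) was -0.42 for Pecam1, against 0.60 in all 9, and 0.00 for Flt1, against 0.56. For Kdr it was 0.12 without clean air mouse 3 and 30 min mouse 3, against 0.66 in all 9. For Slco1a4 it was 0.69 without clean air mouse 2 and 120 min mouse 1, against 0.42. Without clean air mouse 3 and 30 min mouse 1, Tek had an r of 0.36 with Hbb-b1 (Hbb-bs), against 0.64. With Alas2 it had 0.65, against 0.77 in all 9 (exact permutation, adjusted p = 0.106). The red blood cell pairs were also lower without clean air mouse 3 and 120 min mouse 1. Their r was 0.53 for the 2 globin identifiers, against 0.81. With Alas2 it was 0.35 for Hbb-b1 (Hbb-bs) and 0.64 for Hbb-b1 (Hbb-bt), against 0.64 and 0.77. The mice left out were by rule the farthest from the median of the first gene of a pair, which by itself tends to lower r. For deviations from the group means, with all 9 mice kept, r with Hbb-b1 (Hbb-bs) was 0.47 for Pecam1 and 0.41 for Flt1. It was 0.46 for Kdr and 0.49 for Tek, and the red blood cell pairs had 0.66 to 0.74. Libraries share their scaling, so a common shift of depth or composition enters all of these values.

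**Figure D4:**
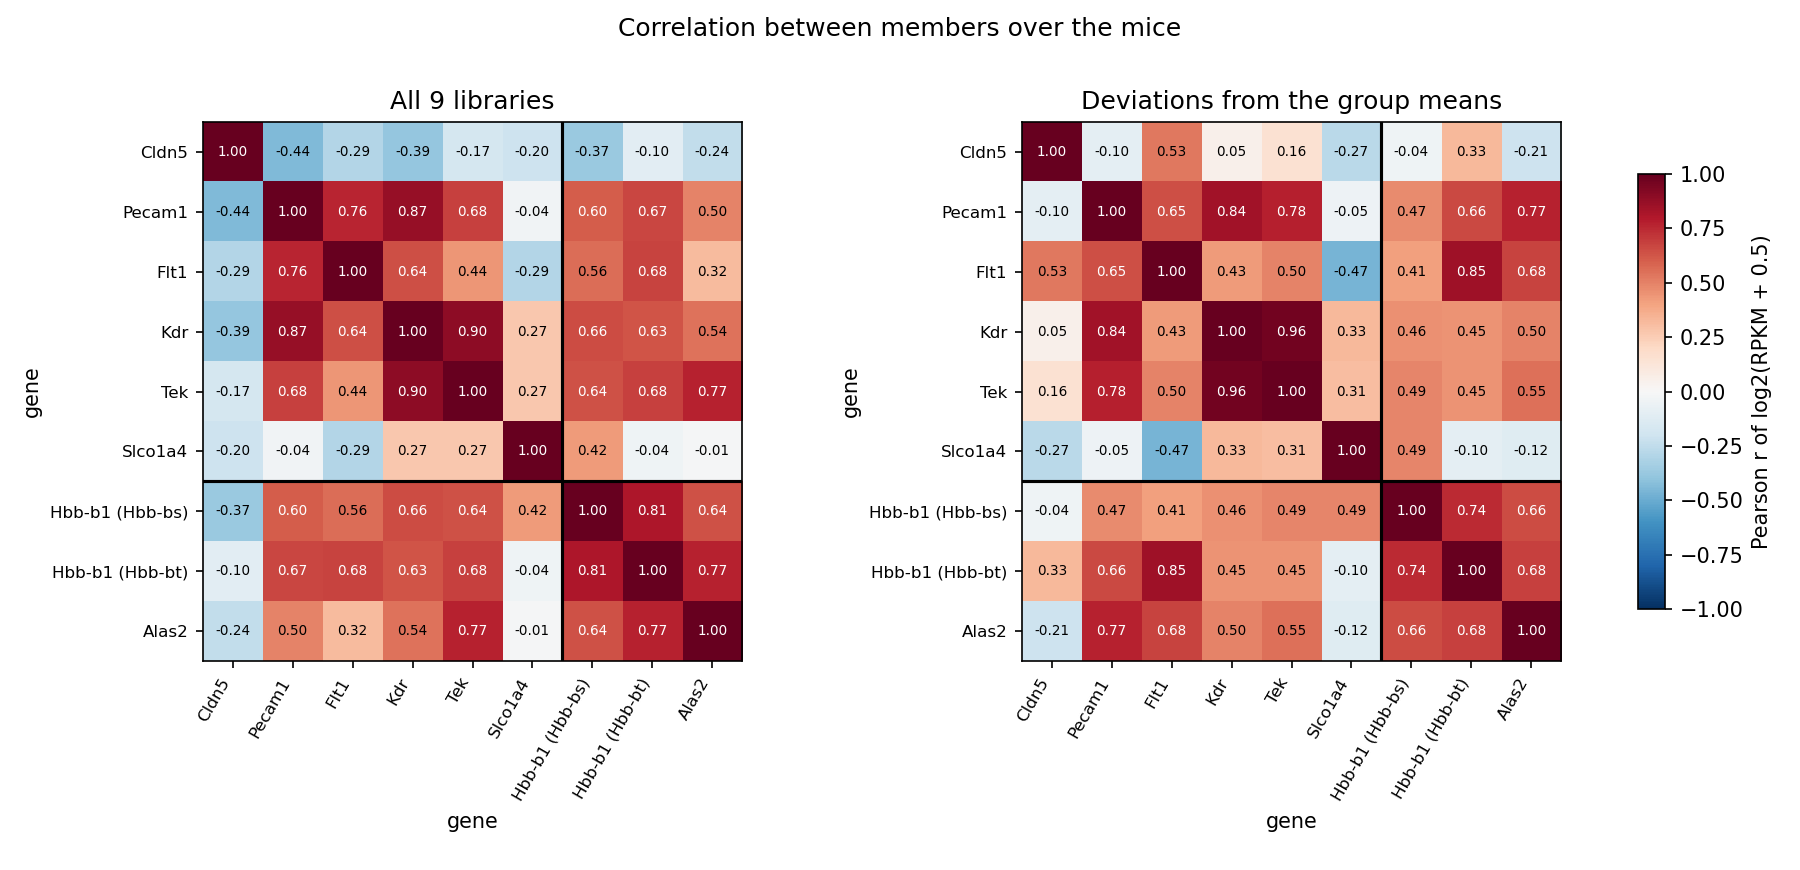
Pearson r between members over the 9 mice (left) and for deviations from the group means (right), with lines between the vessel and the red blood cell genes. Kdr and Tek stand at 0.90 and 0.96, and the first row, Cldn5, is blue throughout on the left.

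With the globin level as a covariate, the vessel differences at 30 min minus clean air were smaller for Kdr, Flt1, Tek and Pecam1 than without it. The log2 difference of Kdr was 0.45 ± 0.37 with the covariate, of Flt1 0.45 ± 0.29, of Tek 0.26 ± 0.30 and of Pecam1 0.17 ± 0.29. That of Slco1a4 changed sign to -0.30 ± 0.40. Cldn5 hardly moved, at -0.43 ± 0.27 at 30 min and -0.43 ± 0.23 at 120 min, and Flt1 at 120 min was 0.65 ± 0.25. Alas2 stayed at -1.13 ± 0.33 for 120 min minus 30 min, while at 30 min minus clean air it was 0.55, and Hbb-b1 (Hbb-bt) was 0.35. None passed in this fit (limma, smallest adjusted p = 0.667), and because globin was itself on average higher at 30 min, the covariate takes up part of the difference between groups.

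The mouse number in the titles went with 2 of the patterns. The sample descriptions number the mice otherwise: the exposed mice titled 2 and 3 are 3 and 4 there, and clean air mouse 3 is 5, so mouse 2 of clean air shares that number with the others by title only. Hbb-b1 (Hbb-bt) was 6.83%, 4.78% and 8.35% of Hbb-b1 (Hbb-bs) in the mice numbered 2 of the 30 min, 120 min and clean air groups, against 9.41% to 15.2% in the 6 other mice. Slco1a4 was 6.53 to 8.91 RPKM in the mice numbered 2, against 3.49 to 5.96 RPKM in the others. In both cases the 3 mice lay apart from the other 6. Such separation was not rare: 7.64% of all genes tested had all 3 mice numbered 2 above the 6 others and 5.34% had them below. The depth of these 3 libraries was 22.2 to 28.8 M, against 7.16 to 29.9 M in the others. The sources used here do not say whether the numbers mark a shared day or batch, and their part in these values was not tested.

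**Figure D5:**
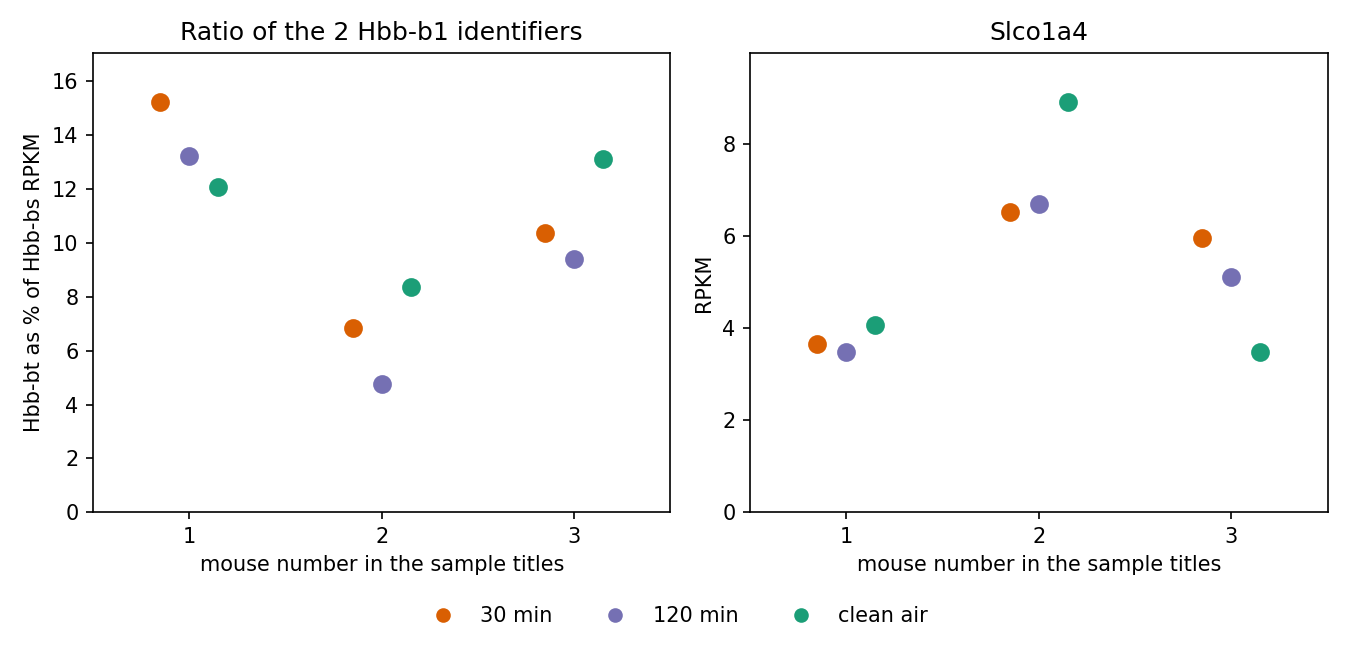
Hbb-b1 (Hbb-bt) as a percentage of Hbb-b1 (Hbb-bs) (left) and Slco1a4 RPKM (right) by the mouse number of the titles, colored by group. The mice numbered 2 are lowest on the left, at 4.78% to 8.35%, and highest on the right, at 6.53 to 8.91 RPKM.

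Other endothelial markers gave no call. Of 31 identifiers on the list 28 were tested, and 0 were called at either time; the defining markers Cdh5, Esam and Tie1 had means of 6.60, 10.8 and 4.63 RPKM over the 9 mice. The most abundant were Ramp2, a co-receptor for adrenomedullin, at 43.4 RPKM, S1pr1, a sphingosine phosphate receptor, at 35.3 RPKM, Eng, a co-receptor of the transforming growth factor family, at 20.7 RPKM, and Ly6c1 at 18.6 RPKM. Of the 28, 22 lay above 0 at 30 min and 24 at 120 min relative to clean air, with median log2 differences of 0.19 and 0.34. Over all genes tested, 61.8% lay above 0 at 30 min and 53.9% at 120 min. The list summed to 231 to 278 RPKM at 30 min and 246 to 308 RPKM at 120 min, against 163 to 248 RPKM in clean air.

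Genes of blood-brain barrier transport and junctions gave 0 calls among 21 tested at either time. The glucose transporter Slc2a1 had the highest mean, 87.0 RPKM, with 74.9 ± 11.1 RPKM at 30 min and 114 ± 18.4 RPKM at 120 min, against 72.3 ± 16.6 RPKM in clean air (SD, n = 3 each). Its log2 difference was 0.67 ± 0.20 at 120 min minus clean air (limma, adjusted p = 0.348). Apcdd1, a Wnt inhibitor, the amino acid transporter Slc7a5 and the lipid transporter Mfsd2a followed at 41.8, 40.9 and 29.3 RPKM. The median log2 difference of the list was 0.25 at 30 min and 0.21 at 120 min.

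Ligands of the vessel receptors were also measured. Of 12 genes 9 were tested and 0 called; Vegfb (63.6 RPKM) and Vegfa (35.5 RPKM) were the most abundant, followed by the co-receptor Nrp1 (7.17 RPKM) and by Tie1 (4.63 RPKM), the partner receptor of Tek. Vegfa, the ligand of Flt1 and Kdr, had 39.0 ± 3.40 RPKM at 30 min and 35.1 ± 6.09 RPKM at 120 min, against 32.5 ± 4.99 RPKM in clean air (log2 difference 0.26 ± 0.18 at 30 min, adjusted p = 0.841, limma). Angpt1, an activating ligand of Tek, was under the filter at a mean of 0.867 RPKM, and Angpt2 was at 1.06 RPKM. The median log2 difference of the list was 0.25 at 30 min and 0.18 at 120 min.

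Of 10 tested genes that respond to flow, stress or inflammation in endothelium, 1 was called. The share of all genes called was 0.141% for 30 min minus clean air and 0.0782% for 120 min minus 30 min. Cyr61, a secreted matrix protein and an early response gene in many cell types, rose at 30 min, to 15.6 ± 8.61 RPKM, against 2.32 ± 0.304 RPKM in clean air (SD, n = 3 each; log2 difference 2.35 ± 0.37, limma adjusted p = 0.0435). At 120 min it was 2.05 ± 0.619 RPKM, lower than at 30 min by a log2 difference of -2.52 (adjusted p = 0.0477). Klf2, a factor induced by blood flow, had 14.98 ± 7.64 RPKM at 30 min and 9.55 ± 2.10 RPKM at 120 min, against 6.37 ± 1.49 RPKM in clean air (30 min log2 difference 1.04 ± 0.37, adjusted p = 0.790). Ctgf, a matrix protein related to Cyr61, and the kinase Sgk1 averaged 26.1 and 20.7 RPKM and were not called.

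The defining red blood cell markers other than the members were at or near 0. Of 16 identifiers 6 were listed at 0 in all 9 libraries, among them the alpha globins Hba-a1 and Hba-a2 and the erythroid factor Gata1. The band 3 anion exchanger Slc4a1 reached at most 0.24 RPKM. The alpha globin coding sequences differ from each other at 1 of 429 bases. Of the 35-base stretches, 90.2% of those of Hba-a2 and 70.5% of those of Hba-a1 also occur in the other, against 66.7% for Hbb-bs. The sources used here do not say how such shared reads were counted, and the cause of the values of 0 was not tested. The 3 tested members of the list were Ank1, Epor and Gypc, with Ank1, a cytoskeletal ankyrin that neurons also express, at 20.4 RPKM; none was called. Among 8 haem synthesis genes 0 were called, and Alas1, the form of the enzyme used by all cells, had 42.0 ± 3.14 RPKM at 30 min and 41.7 ± 1.14 RPKM at 120 min, against 41.3 ± 7.77 RPKM in clean air. Urod, Alad and Fech averaged 30.7, 20.7 and 19.4 RPKM. In a list of 9 tested red cell maturation genes that other cells also use, Slc25a39, Mkrn1 and Bpgm averaged 65.4, 52.2 and 35.04 RPKM, and 0 genes were called.

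Markers of other blood cells were mostly low, with the platelet gene Gp1bb as an exception. Of 9 platelet identifiers 2 were tested: Gp1bb, with 15.6 ± 1.46 RPKM at 30 min and 20.6 ± 5.87 RPKM at 120 min, against 28.3 ± 11.3 RPKM in clean air, and Itga2b, with a mean of 1.29 RPKM. The platelet chemokines Pf4 and Ppbp reached at most 2.13 and 0.14 RPKM, and the platelet markers Gp5 and Gp9 at most 0.45 and 0.59 RPKM. Whether the Gp1bb values come from platelets was not tested. Of 18 neutrophil and lymphocyte identifiers only Lck passed the filter, at 1.14 RPKM, and the neutrophil genes S100a8 and S100a9 reached at most 1.98 and 3.44 RPKM, Cd3e 0.58 RPKM and Cd79a 0.28 RPKM. No gene of either list was called.

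Cells around the vessels were followed with 5 further lists, and 0 genes of these were called at either time. Among 15 tested pericyte and smooth muscle genes Vtn, Acta2, Tagln and Pdgfrb averaged 118, 14.9, 9.95 and 9.83 RPKM. Among 8 tested microglia and macrophage genes C1qb, C1qa, C1qc and Csf1r averaged 71.3, 64.4, 57.9 and 22.9 RPKM. Among 7 tested astrocyte genes Aldoc, Gfap, Slc1a3 and Slc1a2 averaged 838, 220, 131 and 102 RPKM, and among 11 tested bulb neuron genes Doc2g, Gad1, Slc17a7 and Synpr averaged 491, 417, 392 and 336 RPKM. The 7 tested genes of perivascular fibroblasts and meninges, the membranes over the brain, were led by Igf2, Col1a1, Dcn and Col1a2 at 60.1, 10.5, 10.4 and 9.73 RPKM. They were the list nearest to Hbb-b1 (Hbb-bs) over the mice, with r between 0.57 and 0.90 and a median of 0.83. The astrocyte genes had a median of 0.65 and reached 0.83. Medians were 0.58 for the 6 vessel members, 0.50 for the pericyte and smooth muscle genes and 0.44 for the other endothelial markers. The sum of the fibroblast and meningeal list was 102 to 105 RPKM at 30 min and 64.0 to 141 RPKM at 120 min, against 66.5 to 120 RPKM in clean air. The part of this tissue in the globin values was not tested.

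Genes most like each member in pattern over the 9 mice were named by Pearson r of log2(RPKM + 0.5). For Hbb-b1 (Hbb-bs) they were Cecr2, 6820424L24Rik, Mut, Itih5 and 2610027L16Rik, with r of 0.93 to 0.98. For Hbb-b1 (Hbb-bt) they were Gm23650, Lrrc8d, Asahl, AK148297 and D14Ertd500e (0.90 to 0.95), and for Alas2 4930539E08Rik, Clp1, Cat, Rg9mtd1 and Ing5 (0.90 to 0.91). For the mean of the 6 scaled vessel genes they were 6030458C11Rik, Kdr itself, Slc19a3, Blvra and Itih3 (0.94 to 0.96). None of the first 5 for a red blood cell gene was another red blood cell member. Among 12399 named genes Hbb-b1 (Hbb-bt) ranked 131 and Alas2 961 in likeness to Hbb-b1 (Hbb-bs). In likeness to Hbb-b1 (Hbb-bt), Hbb-b1 (Hbb-bs) ranked 74 and Alas2 153. In likeness to Alas2, Hbb-b1 (Hbb-bt) ranked 106 and Hbb-b1 (Hbb-bs) 467. The first 5 were picked as the highest r among all these genes over only 9 mice, and a shared source was not tested.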

How the data were processed

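RNA of 9 olfactory bulbs was isolated with Trizol, freed of DNA with DNase I, enriched for poly(A) tails and read from paired ends, per the labels' protocols. The aligner was Bowtie and the genome build mm9, per the submitters' processing notes. Not given in the sources used here are the version of Bowtie, the annotation, the rule for counting and whether strand was used. The deposited values are RPKM, made by the authors, with 2 decimals, and were used without further scaling. No coordinates of mm9 were used, and GENCODE M21 and RefSeq supplied names and sequences. GENCODE M21 also supplied the lengths behind the depths, floors and read counts. Whether these lengths match the annotation of the authors is not known.

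Depth was recovered from short RNAs, whose RPKM are multiples of 1 read when the length is taken 34 nt shorter; 84.9% to 93.7% of multiples per library were whole within 0.05. The recovery was checked on simulated data.

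The 12780 genes that averaged 1 RPKM or more were fitted as log2(RPKM + 0.5) in limma 3.58.1 (R 4.3.3), using lmFit and then eBayes with a mean-variance trend. This understates changes of low genes. A single fit over the 9 libraries left 6 residual degrees of freedom, with a median of 10.7 after moderation. Tests were two-sided with Benjamini-Hochberg adjustment over all genes tested, called under 0.05, and the fit was tested on simulated data. Errors of log2 differences are standard errors. Correlations used all orderings of the mice (exact permutation) with Benjamini-Hochberg adjustment over 36 pairs, 9 identifiers rather than 8 symbols because Hbb-b1 has 2.

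The members and gene lists were chosen with earlier results of these data known. Named genes are the members, the called genes and the 4 most abundant tested genes of each list. The defining markers and the 5 genes most like a member are also named. Angpt1, Angpt2, Gata1, Epor, Gypc, Gp5, Gp9, Apex2 and Slco1a5 were added after their values were seen. Values of some genes that the rule names are not reported here. Alternatives were the pseudocount, the filter, median-centred libraries, no trend, a mouse number block, globin as a covariate, leaving out each mouse, leaving out the mice numbered 2 and the summed Hbb-b1 identifiers. The last 2 were chosen after seeing the data.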

Additional observations from a re-analysis of the deposited data

How the results depend on the processing

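None of the 27 member tests was called by limma under any of 19 alternatives, with 2 to 10 at an unadjusted p under 0.05 and a smallest adjusted p of 0.170. The count of called genes at 30 min, 18, was 11 without the 3 mice numbered 2 and 13 to 19 on leaving out single mice. At 120 min minus clean air, 11 were called, against 7 with a filter of 5 RPKM, 7 with globin as a covariate, 2 without the mice numbered 2, and 0 to 11 on leaving out single mice. It was 0 without 120 min mouse 3 or clean air mouse 2 (855 and 1090 at an unadjusted p under 0.05), 3 without 120 min mouse 1 or mouse 2 and 6 without clean air mouse 1. At 120 min minus 30 min, 10 were called and 7 to 10 on leaving out single mice. Between 0 and 3 correlated pairs were called on leaving out single mice, against 1 in all 9. The cause of these shifts was not tested.

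Uncalled member differences changed sign 31 times, in 10 of the 27 tests (log2 scale). With median-centred libraries Slco1a4 at 30 min was -0.034, Tek at 120 min -0.025 and Pecam1 at 120 min minus 30 min 0.021. With the globin covariate Slco1a4 was -0.30 at 30 min and 0.10 at 120 min minus 30 min, Tek at 120 min -0.075, Hbb-b1 (Hbb-bt) at 120 min -0.15 and Pecam1 at 120 min minus 30 min 0.086. Without the mice numbered 2 Slco1a4 at 120 min was 0.15, and at 120 min minus 30 min Cldn5 was -0.21 and Flt1 -0.076. Leaving out single mice gave ranges, against clean air, of -0.19 to 0.43 for Slco1a4 at 30 min and, at 120 min, of -0.27 to 0.35 for Slco1a4, -0.19 to 0.12 for Tek, -0.14 to 0.72 for Hbb-b1 (Hbb-bt) and -0.59 to 0.031 for Alas2. At 120 min minus 30 min the ranges were -0.24 to 0.14 for Cldn5, -0.075 to 0.069 for Pecam1, -0.074 to 0.30 for Flt1, -0.31 to 0.15 for Slco1a4 and -0.96 to 0.059 for Hbb-b1 (Hbb-bs).

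The mouse numbers were not taken as pairs: deviations of same-numbered mice from their group means correlated at 0.08 to 0.44, not all over 0.1, although all 9 libraries correlated best with their own number, a hint from the data and not from the design. With the replicate block 22, 11 and 10 genes were called in the 3 contrasts and 0 members, and for deviations from group and number means the median r was 0.90 for the red blood cell pairs, against 0.77, and 0.67 for the vessel pairs (0.24 to 0.95), against 0.27. Cldn5 then had a positive r with all 8 other members (0.11 to 0.78), against a negative one without the block. With Hbb-b1 (Hbb-bs), r rose to 0.86 for Pecam1, 0.87 for Flt1 and 0.46 for Slco1a4, against 0.60, 0.56 and 0.42. It fell to 0.55 for Kdr and 0.56 for Tek, against 0.66 and 0.64. The median of the 18 pairs of a vessel and a red blood cell gene was 0.54, against 0.55. Few degrees of freedom remain once group and number means are removed. With 3 mice a group and 15 to 229 reads on Alas2, a difference that missed the threshold is bounded only by its printed interval.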
